A study of Homo sapiens with 6 samples.

Results

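The genes described here belong to the transcriptional response to low oxygen, apart from the enzymes of glycolysis. They were taken from a list of 40 symbols that holds the subunits and regulators of the hypoxia-inducible factors (HIF) and known low-oxygen targets. All 40 were found by symbol among the 17280 genes of the deposited table. The study sequenced RNA of CAL-27 sphere cells in 6 libraries, of which 3 carry the title CON and 3 the title LF3. CAL-27 is an established cell line from a human squamous carcinoma of the tongue, and growing it as unattached spheres favours cells with traits of stem cells. The CON libraries are labelled as a normal control, and no label says whether they received a vehicle. The compound LF3 keeps beta-catenin from binding TCF4, and the series design gives an exposure of 24 h. The treatment field of the same 3 libraries names elesclomol with copper instead, which brings copper into cells, so which of these agents the libraries titled LF3 received cannot be told apart here. The labels give no oxygen level for either group, and all 6 libraries come from a single cell line with no statement that replicates were separate cultures. The p-values therefore reflect the spread among these libraries alone, which may be technical.

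HIF is a pair of proteins, an oxygen-labile alpha subunit (HIF-1 alpha from HIF1A or HIF-2 alpha from EPAS1) and a stable partner from ARNT. In the presence of oxygen, the EGLN enzymes hydroxylate prolines of the alpha subunit, which the VHL ubiquitin ligase then recognises and marks for destruction, while HIF1AN hydroxylates an asparagine and thereby blocks the recruitment of coactivators. When oxygen is scarce the alpha subunit persists, and the pair binds the core letters ACGTG or GCGTG near its target genes. In squamous carcinomas of the head and neck, protein of targets such as CA9 is widely used to mark poorly oxygenated regions. The alpha subunits are controlled mainly as proteins, which were not measured here.

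Sequences are shown first for members whose promoters hold ACGTG, to set those of them that fell furthest beside those that changed least. They come from RefSeq (GRCh38.p14) and lie before the first listed start of each gene. Each is 60 bases long and is written 5′ to 3′ on the gene's strand, with ACGTG, or its reverse complement CACGT, in capitals. Where both overlap, the capitals read CACGTG. Each sequence holds the match nearest to the start, so matches further from the start may not be shown. With both strands counted, the promoters of BHLHE40 and LOX hold 4 matches each. The CACGTG of BHLHE40 lies outside the sequence shown. NDUFA4L2, ADM, EGLN3 and KDM3A also fell by more than 2.6 on the log2 scale, but their promoters hold no ACGTG. For NDRG1, HILPDA and STC1, which fell that far too, no promoter was found. The first 7 sequences belong to members with this letter group that fell by more than 2.6 on the log2 scale, and the last 4 to those that changed least.
ANGPTL4, chr19:8363905-8363964, plus strand: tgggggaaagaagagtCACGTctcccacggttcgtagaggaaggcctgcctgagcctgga
P4HA1, chr10:73096920-73096979, minus strand: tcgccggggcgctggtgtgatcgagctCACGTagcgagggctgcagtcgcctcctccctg
ANKRD37, chr4:185396671-185396730, plus strand: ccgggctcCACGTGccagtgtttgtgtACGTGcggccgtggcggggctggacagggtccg
BHLHE40, chr3:4979261-4979320, plus strand: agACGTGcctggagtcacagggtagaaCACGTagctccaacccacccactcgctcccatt
LOX, chr5:122078269-122078328, minus strand: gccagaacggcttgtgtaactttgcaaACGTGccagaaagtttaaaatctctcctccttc
CA9, chr9:35673868-35673927, plus strand: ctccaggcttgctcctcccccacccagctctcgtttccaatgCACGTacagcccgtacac
ERO1A, chr14:52695640-52695699, minus strand: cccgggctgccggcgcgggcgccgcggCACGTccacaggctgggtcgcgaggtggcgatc
EGLN1, chr1:231422288-231422347, minus strand: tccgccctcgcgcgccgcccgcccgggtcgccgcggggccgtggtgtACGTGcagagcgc
BHLHE41, chr12:26125052-26125111, minus strand: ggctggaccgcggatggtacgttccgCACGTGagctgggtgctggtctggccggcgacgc
BNIP3, chr10:131982024-131982083, minus strand: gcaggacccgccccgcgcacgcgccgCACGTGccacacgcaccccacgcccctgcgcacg
EGLN2, chr19:40799116-40799175, plus strand: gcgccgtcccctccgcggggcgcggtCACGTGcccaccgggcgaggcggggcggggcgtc

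Promoters, each 250 bases before to 50 after the start, were found for 31 of the 40 members. The 9 others are ANKZF1, BNIP3L, HILPDA, JMJD6, LOXL2, NDRG1, STC1, VEGFA and VHL. On either strand, ACGTG stood in 19 of the 31 promoters (61.3%), against 27.0% of 10045 promoters of all tested genes. The other core, GCGTG, stood in 17 of 31 (54.8%), against 51.0%. The palindrome CACGTG, which contains ACGTG on both strands and is also bound by other factors, BHLHE40 and BHLHE41 among them, stood in 10 of 31 (32.3%) against 10.3%. When every listed start of a gene was searched, ACGTG was found in 61.3% of the members and 32.6% of the tested genes. The members were listed as known HIF targets and regulators, so these shares are a description of that choice. A match is a run of letters and no evidence of binding.

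Members with and without ACGTG in the searched stretch changed by similar amounts, a difference not tested here. The median log2 fold change of LF3 against CON was -1.80 for the 18 tested members with ACGTG and -1.66 for the 12 without it, and 17 and 10 of them fell. Of those 12, ADM, CA12, EPAS1, HIF1A, KDM3A, NDUFA4L2 and PLOD1 hold the other core, GCGTG. Members without a promoter sequence are left out, and sites further from the start were not searched. The split therefore does not separate members with and without HIF sites. Among all tested genes the median was 0.26 both with and without ACGTG, and 32.6% and 31.4% were lower in LF3. In the sequences above, a CACGTG stands in the promoter of ANKRD37, which fell (-4.22 on the log2 scale). It also stands in those of BNIP3 and BHLHE41, which hardly changed, and of EGLN2, which rose. Of the other members with a CACGTG, BHLHE40, KDM4B, KDM4C, PPFIA4 and WSB1 fell, and PLIN2 was not tested.

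Levels are in TPM, a length-corrected share of all transcripts from which sequencing depth cannot be read back. Depth is therefore unknown here, and no counting intervals are given. Log2 fold changes compare LF3 with CON after adding 1 TPM, so that changes of low genes are understated, and are given ± the limma standard error; means are given ± SD with n = 3 in each group. A gene was tested if its mean over the 6 libraries was at least 1 TPM, and it is said to have risen or fallen where limma gave a Benjamini-Hochberg adjusted p under 0.05 over all 12195 tested genes. In bulk RNA, fewer cells of a type and less RNA per cell cannot be told apart.

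Of the 40 members, 39 were tested, and 35 fell while 4 rose. Over all tested genes 32.3% were called lower and 53.2% called higher, so the members' 89.7% lower stood well above the table as a whole. A call as such did not set them apart, since 85.5% of all tested genes were called in either direction. The members were chosen with earlier results of these data known, so the shares and medians given here describe that choice and are no independent test. A fall of at least 2-fold was called in 28 members (71.8%) against 11.1% of all tested genes, and a rise of at least 2-fold in 1 member, HIF1A, against 20.8%. In all 39 tested members the 3 LF3 values lay apart from the 3 CON values, lower in 35 and higher in 4, against 32.7% and 53.5% of tested genes. The median log2 fold change was -1.75 for the members and 0.24 for all tested genes. After median-ratio rescaling, which divides each library by its typical ratio to the average library, the median of all genes was -0.0055 and that of the members -2.02, and the counts stayed at 35 lower and 4 higher. Higher values made up 62.2% of all calls in the table as deposited and 50.0% after this rescaling. Only NDUFA4L2 among the tested members averaged under 1 TPM in LF3, so it passed the filter through its CON values alone and could only be tested as a fall. The remaining member, PLIN2, which encodes a coat protein of lipid droplets, was listed at 0 to 0.13 TPM in every library and was not tested.

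**Figure D1:**
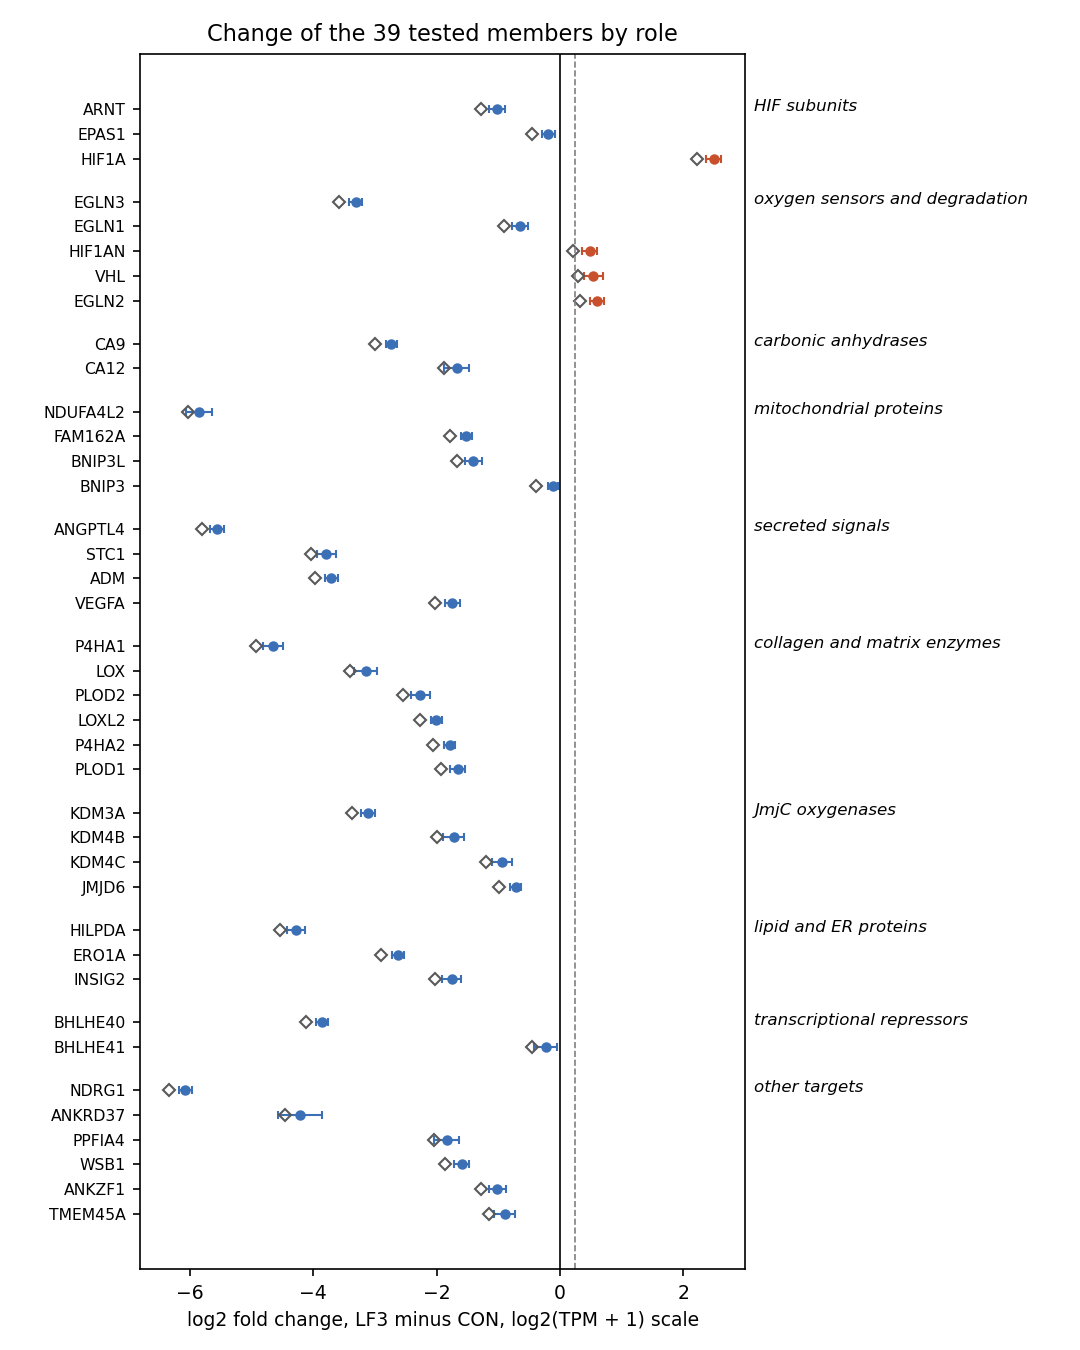
Log2 fold change of the 39 tested members (horizontal axis, LF3 minus CON, on log2(TPM + 1)) by role, with filled points for the fitted values, bars for their 95% confidence intervals and open diamonds for the values after median-ratio rescaling. The dashed line marks the median of all tested genes (0.24); 35 members lie left of 0, and HIF1A, EGLN2, VHL and HIF1AN lie right of it under both scalings.

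The summed level of the 40 members was 10161 ± 111 TPM in CON and 2192 ± 128 TPM in LF3, or 4.63-fold lower. Without HIF1A, the sum was 10074 ± 109 TPM in CON and 1698 ± 86.2 TPM in LF3, which is 5.93-fold lower. The order of the members changed along with the sum. In CON the 6 most abundant members were NDRG1, P4HA1, ERO1A, PLOD2, VEGFA and LOXL2, and NDRG1 alone made up 19.4% of the summed TPM. In LF3 they were HIF1A, BNIP3, VEGFA, PLOD2, ERO1A and LOXL2, with HIF1A at 22.5% of the sum against 0.858% in CON. A mean of at least 100 TPM was held by 19 members in CON and by 6 in LF3. Replicates lay close together: the coefficient of variation of the tested members had a median of 3.28% in CON and 6.32% in LF3, with the largest value, 40.7%, for NDUFA4L2 at its low LF3 level. LF3 replicate 3 had the lowest LF3 value in 30 of the 39 members, against 55.0% of all tested genes.

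**Figure D2:**
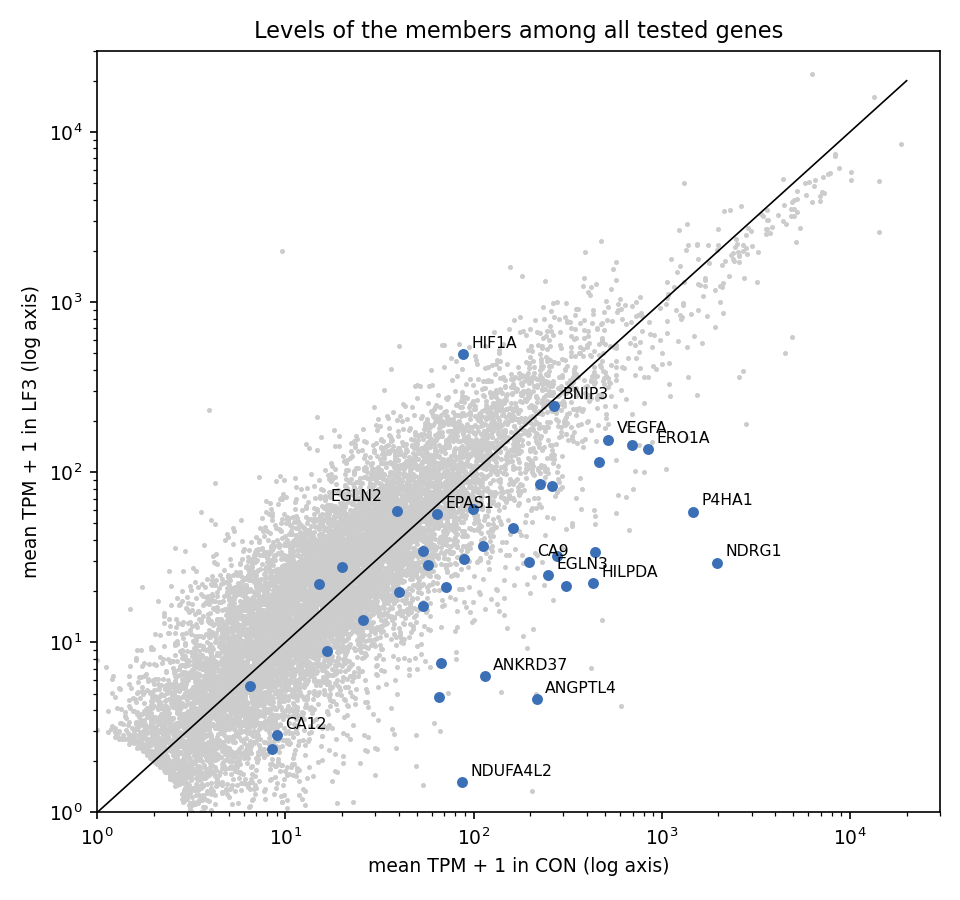
Mean level in LF3 against mean level in CON for all 12195 tested genes (grey) and the 39 tested members (blue), both as TPM + 1 on log axes, with the line of equal levels. Most members lie below the line, NDRG1 and P4HA1 furthest to the right among the members, while HIF1A lies above it and BNIP3 close to it.

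The subunits of HIF itself split. HIF1A rose 5.67-fold, ARNT fell 2.09-fold and EPAS1 was slightly lower. HIF1A stood at 84.2, 89.5 and 87.9 TPM in the CON libraries and 527, 508 and 448 TPM in the LF3 libraries. The groups were far apart, with a log2 fold change of 2.49 ± 0.057 (95% interval 2.36 to 2.61; limma adjusted p = 2.53e-11) and 2.21 after rescaling. Antisense transcripts overlap HIF1A, and the libraries are not stated to keep strand, so reads of the gene and of its antisense partners cannot be told apart.

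EPAS1 stood at 62.6, 63.3 and 63.9 TPM in the CON libraries and 58.0, 54.8 and 53.4 TPM in the LF3 libraries. Its LF3 values were all below its CON values by a small margin, and its log2 fold change was -0.19 ± 0.045 (limma adjusted p = 0.00247), or -0.46 after rescaling. ARNT, the shared partner, stood at 39.4, 38.3 and 40.2 TPM in the CON libraries and 18.4, 20.3 and 17.8 TPM in the LF3 libraries. Its log2 fold change was -1.02 ± 0.059, so the messages of the 3 subunits did not move together. HIF1A exceeded EPAS1 by a TPM ratio of 1.38 ± 0.0351 in CON and 8.91 ± 0.465 in LF3, both levels being corrected for length.

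Among the genes that sense oxygen and destroy HIF alpha, EGLN3 fell 10.3-fold and EGLN1 less, while EGLN2, HIF1AN and VHL rose modestly. EGLN3 and EGLN1 are themselves known HIF targets, and EGLN2 is not known as one. A link between this and their changes was not tested. EGLN3 stood at 243, 247 and 250.2 TPM in the CON libraries and 24.4, 24.8 and 22.5 TPM in the LF3 libraries. The most abundant of the 3 prolyl hydroxylase messages in CON thus became the least abundant in LF3. Its log2 fold change was -3.31 ± 0.046 (limma adjusted p = 1.07e-12). EGLN1 stood at 53.8, 55.1 and 50.0 TPM in the CON libraries and 35.4, 34.0 and 31.2 TPM in the LF3 libraries, which gave -0.64 ± 0.059 on the log2 scale. EGLN2 stood at 39.5, 35.7 and 38.9 TPM in the CON libraries and 60.3, 57.0 and 56.7 TPM in the LF3 libraries. Its log2 fold change was 0.60 ± 0.053, and the order in LF3 became EGLN2, EGLN1, EGLN3, with no overlap between neighbours. In CON the order was EGLN3, EGLN1, EGLN2, again without overlap.

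HIF1AN, the asparagine hydroxylase gene, stood at 18.7, 19.3 and 18.9 TPM in the CON libraries and 27.3, 27.2 and 26.0 TPM in the LF3 libraries. VHL, which encodes the part of the ubiquitin ligase that recognises hydroxylated HIF alpha, stood at 14.0, 15.4 and 12.9 TPM in the CON libraries and 21.5, 20.4 and 20.9 TPM in the LF3 libraries. Both had all LF3 values above all CON values, with log2 fold changes of 0.48 ± 0.052 and 0.54 ± 0.070. Rescaling reduced the 3 small rises to 0.33 for EGLN2, 0.22 for HIF1AN and 0.28 for VHL, and all 3 kept their call there and under quantile normalization (0.23, 0.17 and 0.24).

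**Figure D3:**
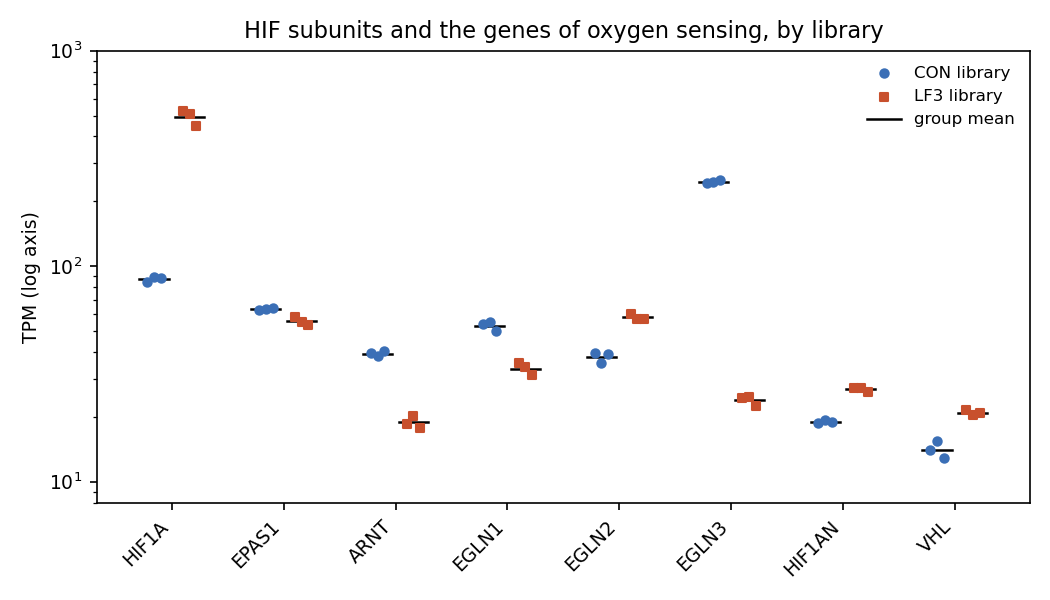
TPM (vertical log axis) of the 3 HIF subunit genes and the 5 genes of oxygen sensing and HIF degradation in each of the 3 CON (circles) and 3 LF3 (squares) libraries, with bars at the group means. HIF1A is higher and EGLN3 and ARNT lower in all LF3 libraries, and the smaller shifts of EPAS1, EGLN1, EGLN2, HIF1AN and VHL also separate the groups.

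Of 18 other components of the pathway, 17 were tested, 11 rose (64.7%) and 4 fell (23.5%), against 53.2% and 32.3% of all tested genes. After rescaling 9 rose and 6 fell, against 42.6% and 42.7% of all tested genes. A rise of at least 2-fold was called in 7 components (41.2%) against 20.8% of all tested genes. A fall of at least 2-fold was called in 2 (11.8%) against 11.1%. After rescaling these were 4 and 2 components, against 1705 and 1864 of the 12195 tested genes. The median log2 fold change of the components was 0.51 (0.23 after rescaling), against 0.24 (-0.0055) for all tested genes. These differences were not tested, and the components too were chosen with earlier results of these data known. The largest changes were those of MCM7 (2.18 ± 0.045), a replication helicase subunit reported to promote HIF-1 alpha degradation, HSP90AA1 (1.99 ± 0.055), a chaperone that stabilises HIF-1 alpha, RUVBL2 (1.69 ± 0.067), a chromatin ATPase, and CUL2 (1.37 ± 0.066), the scaffold of the VHL ligase.

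The secreted signals of the list all fell. ANGPTL4, an inhibitor of lipoprotein lipase, dropped furthest, 59.7-fold, followed by STC1, a glycoprotein hormone, at 17.2-fold, ADM, the vessel-relaxing peptide adrenomedullin, at 13.4-fold, and VEGFA, the main growth factor of blood vessels, at 3.37-fold. ANGPTL4 stood at 213, 209 and 227 TPM in the CON libraries and 3.60, 3.70 and 3.57 TPM in the LF3 libraries. The log2 fold change was -5.55 ± 0.052 (limma adjusted p = 1.48e-13).

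STC1 stood at 63.1, 66.7 and 64.2 TPM in the CON libraries and 3.84, 4.08 and 3.38 TPM in the LF3 libraries. ADM stood at 427, 441 and 458 TPM in the CON libraries and 31.7, 34.7 and 32.6 TPM in the LF3 libraries. VEGFA stood at 512, 509.9 and 536 TPM in the CON libraries and 165, 157 and 140.1 TPM in the LF3 libraries. All LF3 libraries were below all CON libraries for these 3 genes, with log2 fold changes of -3.79 ± 0.069, -3.71 ± 0.045 and -1.75 ± 0.055. Although VEGFA fell, it was the third most abundant member in LF3.

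All 6 enzymes of collagen processing and crosslinking fell, by 3.17- to 25.5-fold. P4HA1 and P4HA2 encode the catalytic subunits of collagen prolyl 4-hydroxylase, PLOD1 and PLOD2 the lysyl hydroxylases of collagen, and LOX and LOXL2 lysyl oxidases that crosslink collagen and elastin outside the cell. P4HA1 stood at 1485, 1515 and 1406 TPM in the CON libraries and 63.5, 59.6 and 50.0 TPM in the LF3 libraries. It had a log2 fold change of -4.65 ± 0.072 (limma adjusted p = 2.27e-12), whereas P4HA2, at 163, 159 and 161 TPM in CON and 46.1, 47.4 and 44.3 TPM in LF3, had -1.79 ± 0.041. The TPM ratio of P4HA1 to P4HA2 was 9.11 ± 0.399 in CON and 1.25 ± 0.123 in LF3, so a message that dominated in CON came close to its paralog in LF3.

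PLOD2 stood at 703, 725 and 641 TPM in the CON libraries and 153, 149 and 127 TPM in the LF3 libraries. PLOD1 stood at 258, 256 and 266 TPM in the CON libraries and 89.8, 79.0 and 77.2 TPM in the LF3 libraries. Both were clearly lower in every LF3 library, PLOD2 at -2.27 ± 0.068 and PLOD1 at -1.66 ± 0.054. LOX stood at 65.1, 68.9 and 63.5 TPM in the CON libraries and 6.97, 7.21 and 5.54 TPM in the LF3 libraries, which gave -3.15 ± 0.085. LOXL2, the more abundant of the lysyl oxidase messages here, stood at 457, 449.8 and 476 TPM in the CON libraries and 119.7, 113 and 110.0 TPM in the LF3 libraries, which gave -2.00 ± 0.041. Together the 6 genes summed to 3107 ± 82.0 TPM in CON and 449 ± 32.8 TPM in LF3.

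Among proteins of the mitochondrion, NDUFA4L2 fell the most and BNIP3 hardly at all. NDUFA4L2, a low-oxygen paralog of a respiratory chain subunit, stood at 82.6, 86.9 and 86.9 TPM in the CON libraries and 0.530, 0.290 and 0.700 TPM in the LF3 libraries. Its log2 fold change was -5.85 ± 0.096 and depended on the pseudocount at these low LF3 values: it was -6.44 with 0.5 TPM and -7.20 with 0.1 TPM added. FAM162A, a mitochondrial protein tied to cell death in low oxygen, stood at 88.3, 86.8 and 87.1 TPM in the CON libraries and 29.6, 29.8 and 30.0 TPM in the LF3 libraries, with -1.52 ± 0.041.

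BNIP3 and BNIP3L encode receptors that mark mitochondria for autophagy. BNIP3L stood at 223, 236 and 212 TPM in the CON libraries and 86.9, 88.6 and 76.3 TPM in the LF3 libraries. It fell by 2.66-fold, with a log2 fold change of -1.41 ± 0.060. BNIP3 stood at 267, 269.6 and 261 TPM in the CON libraries and 253, 244 and 239.8 TPM in the LF3 libraries. The lowest CON value exceeded the highest LF3 value by little, and the log2 fold change was -0.12 ± 0.034 (95% interval -0.19 to -0.04; limma adjusted p = 0.00855), or -0.39 after rescaling. BNIP3 has processed pseudogenes, and no source used here says how reads with several matches were counted, so its level is uncertain.

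The carbonic anhydrases, which hydrate carbon dioxide at the cell surface and so shift the pH, both fell. CA9 stood at 189.7, 194 and 202 TPM in the CON libraries and 29.0, 28.2 and 28.4 TPM in the LF3 libraries. It was 6.85-fold lower, with -2.73 ± 0.042 on the log2 scale (limma adjusted p = 2.19e-12). CA12 stood at 7.76, 7.79 and 8.53 TPM in the CON libraries and 1.92, 1.99 and 1.59 TPM in the LF3 libraries, which gave -1.67 ± 0.090.

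The list holds 4 further JmjC oxygenases beside HIF1AN, which also has the JmjC fold and rose. These enzymes need oxygen and 2-oxoglutarate, and KDM3A, KDM4B, KDM4C and JMJD6 fell to differing degrees. KDM3A, which removes methyl groups from histone H3 lysine 9, stood at 279, 286 and 266 TPM in the CON libraries and 33.0, 31.6 and 29.3 TPM in the LF3 libraries. Its fall was 8.85-fold (-3.11 ± 0.050). The demethylase gene KDM4B stood at 51.1, 51.5 and 56.6 TPM in the CON libraries and 17.1, 15.2 and 13.8 TPM in the LF3 libraries, and its paralog KDM4C at 26.2, 24.6 and 23.5 TPM in the CON libraries and 13.1, 13.1 and 11.2 TPM in the LF3 libraries. Log2 fold changes were -1.73 ± 0.077 and -0.94 ± 0.075. JMJD6, a lysyl hydroxylase of splicing factors, stood at 101, 95.9 and 98.7 TPM in the CON libraries and 58.4, 61.5 and 58.2 TPM in the LF3 libraries, with -0.72 ± 0.043, the smallest change of the 4.

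Genes for lipid storage, sterol control and protein folding were lower too. HILPDA, which restrains the breakdown of lipid droplets, stood at 417, 439 and 429 TPM in the CON libraries and 21.5, 23.3 and 18.9 TPM in the LF3 libraries. ERO1A, the oxidase that supplies disulfide bonds in the endoplasmic reticulum, stood at 833, 880.5 and 812 TPM in the CON libraries and 138, 141 and 128 TPM in the LF3 libraries. INSIG2, which retains the sterol sensor in the endoplasmic reticulum, stood at 69.2, 73.4 and 68.0 TPM in the CON libraries and 21.8, 20.5 and 18.1 TPM in the LF3 libraries. No LF3 value reached a CON value in any of them, and log2 fold changes were -4.28 ± 0.066, -2.63 ± 0.045 and -1.76 ± 0.068.

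The transcriptional repressors BHLHE40 and BHLHE41, which also act in the circadian clock, differed in their change. BHLHE40 stood at 307, 309 and 311 TPM in the CON libraries and 20.9, 20.7 and 19.5 TPM in the LF3 libraries. It fell 15.1-fold, with -3.86 ± 0.041 (limma adjusted p = 3.08e-13). BHLHE41 stood at 5.54, 5.81 and 5.09 TPM in the CON libraries and 4.25, 4.73 and 4.56 TPM in the LF3 libraries. Its log2 fold change was -0.23 ± 0.083 (limma adjusted p = 0.0218), and leaving out CON replicate 1, CON replicate 2 or LF3 replicate 1 ended this call (limma adjusted p = 0.0593, 0.0813 and 0.0778).

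NDRG1, a gene strongly induced by low oxygen whose protein acts in vesicle traffic and differentiation, was the most abundant member in CON. It stood at 1941, 1972 and 2008 TPM in the CON libraries and 30.6, 28.2 and 26.5 TPM in the LF3 libraries. Its 69.4-fold fall gave -6.07 ± 0.048 (limma adjusted p = 1.18e-13), and -6.11 with 0.1 TPM added. ANKRD37, an ankyrin repeat protein and direct HIF target, stood at 116, 109.7 and 115 TPM in the CON libraries and 7.11, 3.56 and 5.35 TPM in the LF3 libraries. Its LF3 values ranged from 3.56 to 7.11 TPM, which gave the largest standard error of the members, -4.22 ± 0.16. PPFIA4, a liprin, stood at 7.59, 8.11 and 6.79 TPM in the CON libraries and 1.43, 1.30 and 1.38 TPM in the LF3 libraries, with -1.84 ± 0.091. WSB1, a subunit of a ubiquitin ligase, stood at 108, 118 and 105 TPM in the CON libraries and 35.0, 37.3 and 35.4 TPM in the LF3 libraries, with -1.60 ± 0.053. ANKZF1, which acts in ribosome quality control, and TMEM45A, a transmembrane protein, fell less, by 2.06- and 1.97-fold (-1.02 ± 0.061 and -0.90 ± 0.075).

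Among the 20 tested genes with the lowest log2 fold changes, 6 were members (NDRG1, NDUFA4L2, ANGPTL4, P4HA1, HILPDA and ANKRD37). Of these, NDUFA4L2 passed the filter through its CON values alone and could only be tested as a fall. Among the 100 lowest, 12 were members, and none of the 100 highest was. These ranks moved with the pseudocount: with 0.5 and 0.1 TPM added, 4 and 3 members stood among the 20 lowest and 11 and 9 among the 100 lowest. NDRG1 ranked 3rd lowest with 1 TPM added and 8th with 0.1 TPM, NDUFA4L2 5th and 4th, and ANGPTL4 6th and 12th. Of the 35 members that fell, 6 had a log2 fold change of -4 or below, 10 lay between -4 and -2, 12 between -2 and -1, and 7 above -1. The last group held EPAS1, EGLN1, BNIP3, KDM4C, JMJD6, BHLHE41 and TMEM45A.

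Closely related genes of the list changed by different amounts. The log2 fold changes of BHLHE40 and BHLHE41 differed by -3.62 ± 0.075, those of P4HA1 and P4HA2 by -2.86 ± 0.089 and those of BNIP3 and BNIP3L by 1.29 ± 0.063. The differences were -1.06 ± 0.065 for CA9 against CA12, -1.14 ± 0.10 for LOX against LOXL2, -0.79 ± 0.10 for KDM4B against KDM4C and 0.61 ± 0.092 for PLOD1 against PLOD2. The prolyl hydroxylases showed the widest gap, 3.91 ± 0.061 between EGLN2 and EGLN3. Each of the 11 pairs compared, HIF1A against EPAS1 and the EGLN pairs included, gave p = 0.1 in a two-sided exact permutation test of the 6 per-library differences, which is the smallest p that 3 against 3 allows, so no pair could pass 0.05.

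**Figure D4:**
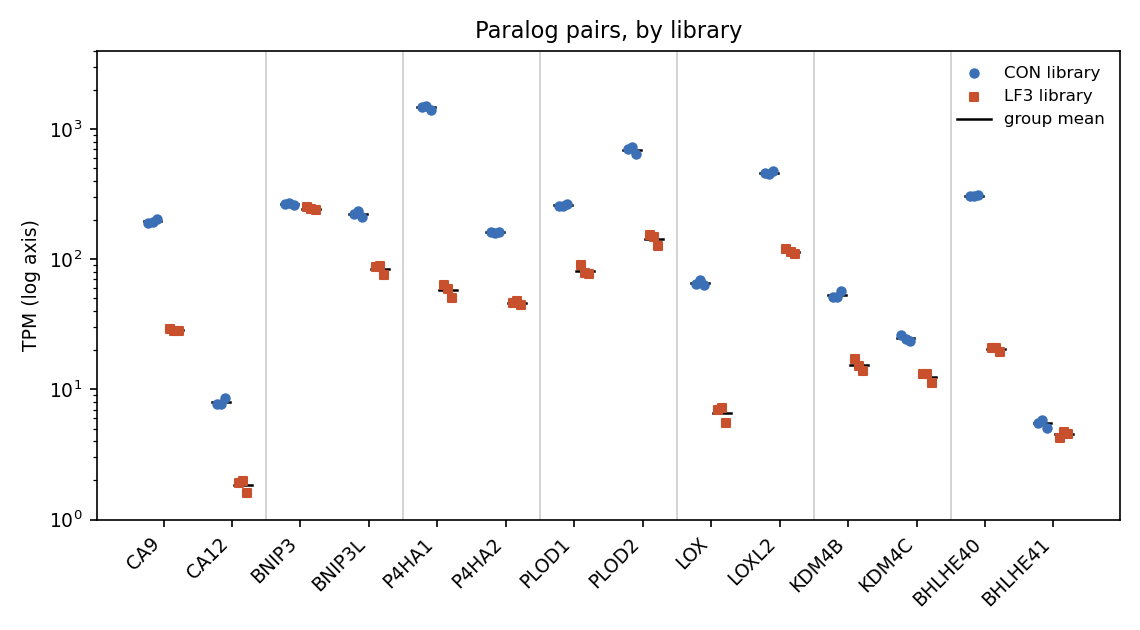
TPM (vertical log axis) of 7 paralog pairs, separated by grey lines, in each of the 3 CON (circles) and 3 LF3 (squares) libraries, with bars at the group means. P4HA1 drops to near P4HA2, BHLHE40 to within a few-fold of BHLHE41, and BNIP3 stays near its CON level while BNIP3L drops.

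A further 30 low-oxygen targets that are neither members nor glycolytic were listed, of which 26 were tested. Of these, 18 fell (69.2%) and 6 rose (23.1%), against 32.3% and 53.2% of all tested genes, and 12 fell at least 2-fold (46.2%, against 11.1%). The 18 and the 12 include CXCR4, RORA and VLDLR, which averaged under 1 TPM in LF3. They passed the filter through their CON values alone, so they could only be tested as falls. After rescaling 20 fell and 4 rose, against 42.7% and 42.6% of all tested genes. Their median log2 fold change was -0.89 (-1.16 after rescaling). Large changes were those of TFRC (3.76 ± 0.046), the transferrin receptor, which iron supply also controls, SPAG4 (-3.17 ± 0.10), a nuclear envelope protein, and SLC6A8 (-3.00 ± 0.038), the creatine transporter. Of 21 glycolytic targets, 20 were tested, of which 14 fell (70.0%) and 5 rose, or 15 and 1 after rescaling, to be read against the same shares. Their median was -0.65, and the largest falls were those of ALDOC (-3.33 ± 0.037), HK2 (-3.30 ± 0.035), ENO2 (-3.17 ± 0.038) and ALDOA (-2.48 ± 0.031). The difference between these lists and the members was not tested, and these lists too were chosen with earlier results of these data known.

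**Figure D5:**
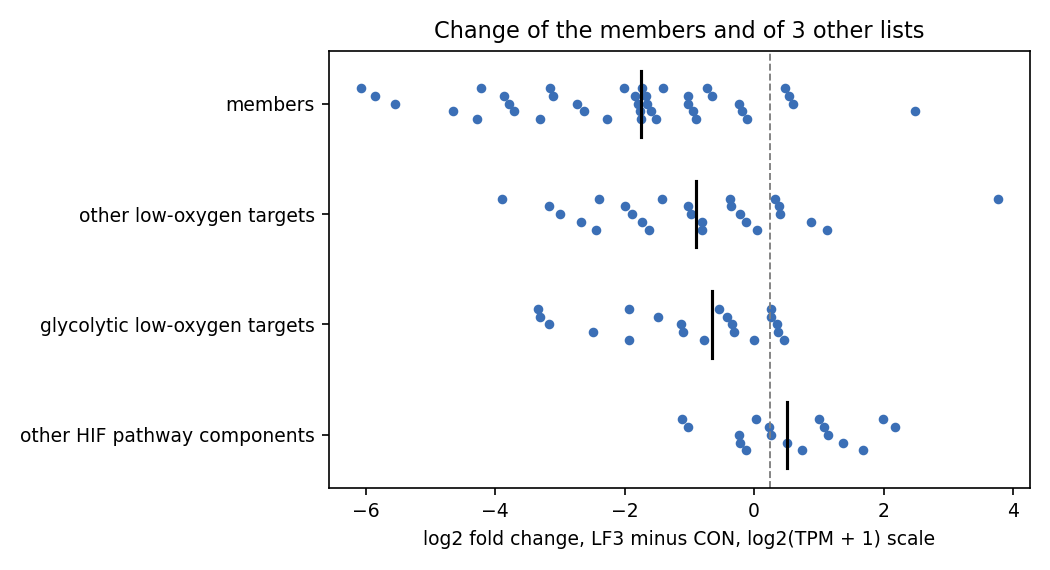
Log2 fold changes (horizontal axis, LF3 minus CON, on log2(TPM + 1)) of the tested genes of the members and 3 other lists, 1 point per gene, stacked for visibility, with black bars at the list medians and a dashed line at the median of all tested genes (0.24). The medians are -1.75 for the members, -0.89 for other low-oxygen targets, -0.65 for glycolytic targets and 0.51 for other HIF pathway components.

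Markers of squamous epithelium were present in all libraries, 8 of 9 of them tested, with a summed level of 1197 to 1219 TPM in CON and 1698 to 1733 TPM in LF3. Their calls went both ways, 5 higher and 2 lower, and 3 higher and 4 lower after rescaling. KRT5 rose 4.47-fold and KRT17 fell 3.40-fold, while KRT14 lay under 1 TPM. The 5 endothelial markers summed to 0.600 to 0.710 TPM in CON and 6.41 to 7.51 TPM in LF3. In LF3 nearly all of it was CDH5. The 6 fibroblast markers summed to 14.8 to 15.8 TPM in CON and 6.81 to 7.69 TPM in LF3. COL3A1 and DCN stood at 0 in 5 of the 6 libraries, while COL1A1 averaged 9.27 TPM in CON and 4.31 TPM in LF3. All 3 tested fibroblast markers, COL1A1, LUM and PDGFRB, fell, against 32.3% of all tested genes. LUM averaged 0.62 TPM in LF3 and passed the filter through its CON values alone. Of 6 leukocyte markers, 5 were in the table and summed to 329 to 341 TPM in CON and 47.3 to 51.7 TPM in LF3, nearly all of it CD68, a lysosomal protein that other cells also make, while PTPRC, the defining leukocyte gene, was listed at 0 to 0.02 TPM. CDH5, CD68 and the 3 tested fibroblast markers moved with the groups, and their part in the results was not tested.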

How the data were processed

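RNA of 3 CON and 3 LF3 libraries was analysed, with groups taken from the sample titles. The labels' protocols give Trizol extraction and single-end sequencing on a BGISEQ500 instrument with a read length of 50 bases. HISAT, Bowtie2 and the build GRCm38.p6 stand in the submitters' processing notes. The build belongs to the mouse, but the table's identifiers are human, so the reference used for alignment is unknown here. The deposited values are TPM per gene, computed by the authors, with an equal total in each library, so depth is unknown.

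The 12195 genes of 17280 that averaged 1 TPM or more were tested on log2(TPM + 1) with limma 3.58.1 in R 4.3.3 (mean-variance trend, two-sided, Benjamini-Hochberg adjustment over all tested genes, threshold 0.05), without a block for the replicate number. On simulated data with seeded changes, the fit was checked first. Values were identical between libraries of a group in 0.238 to 0.501% of tested genes, so none was a copy of another in its group, and all 6 were kept. This check cannot tell separate cultures from repeated libraries of the same culture. Promoters came from RefSeq (GRCh38.p14). Plots were made in Python 3.11.15 with matplotlib 3.10.9.

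The members and lists were chosen with earlier results of these data known. Values in every library are given for the HIF subunits, the sensors, the paralogs and, within each role, up to 4 members with the largest called change. Of each other list, the 4 called genes with the largest change are named, apart from 1 that is not reported here. Alternatives tried were other pseudocounts (0.1 and 0.5), other filters (none and 5 TPM), median-ratio scaling, quantile normalization, no trend, array weights, the replicate block and leaving out each library.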

Additional observations from a re-analysis of the deposited data

How the results depend on the processing

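In all 15 alternatives run, 4 members were called higher in LF3, with 1 of them at least 2-fold, and 32 to 35 were called lower. The 32 belong to the filter of 5 TPM, under which 36 members were tested. The median log2 fold change of the members was -1.75 and moved to -2.02 after median-ratio scaling and to -2.00 after quantile normalization. When a library was left out, the median lay between -1.80 and -1.68, the members called lower numbered 34 to 35 and those at least 2-fold lower 26 to 28. With the replicate number as a block the median was -1.75, with 35 members lower and 4 higher. Deviations from the group means correlated at 0.048, 0.11 and 0.16 between same-numbered CON and LF3 libraries. Between differently numbered ones they correlated at -0.17 to 0.074. Deviations within a group are not independent, so whether samples were paired cannot be told from these values. Of 582 single-member values under the alternatives, 579 kept their direction and their side of the threshold and 0 reversed; the 3 others are the calls of BHLHE41 lost without CON replicate 1, CON replicate 2 or LF3 replicate 1, where an arm of 2 samples remained. TPM keep no depth, so the reliability of low values such as those of NDUFA4L2 in LF3 cannot be judged from counts.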
